A study of Mus musculus with 44 samples.

Results

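The Ms4a genes encode small membrane proteins with several transmembrane segments, and 8 of them were followed here in brain microglia of an amyloid mouse model: Ms4a1, Ms4a4a, Ms4a4b, Ms4a4c, Ms4a6b, Ms4a6c, Ms4a6d and Ms4a7. They were taken by name from 2 deposited tables of RPKM (read counts scaled to gene length and to the size of the library), each with 37583 genes. Of the 8 names, 7 had a row in each table; no row was named Ms4a4a, so that gene has no value here. Ms4a4c, Ms4a6b, Ms4a6c, Ms4a6d and Ms4a7 reached 1 RPKM in at least 5 libraries of each table and were tested, among 14591 tested genes in females and 13845 in males. Ms4a1 and Ms4a4b did not reach that level in any library.

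The microglia were sorted for CD11b and CD45 from brains of mice aged 8 months. The female groups were NonTg;Trem2+/+ (5 libraries), 5xFAD;Trem2+/+ (6), 5xFAD;Trem2 T96K/+ (9) and 5xFAD;Trem2 T96K/T96K (7), and the male groups were 5xFAD with Trem2+/+ (5), T96K/+ (6) and T96K/T96K (6). 5xFAD mice carry human transgenes with familial Alzheimer's mutations, driven in neurons, and deposit amyloid, and T96K is an amino acid change in TREM2, a lipid-sensing receptor of microglia; the Trem2+/+ groups, NonTg included, carry no T96K allele. The comparisons ask how the amyloid transgenes, and then the T96K allele on top of them, change these cells. NonTg males and mice with T96K but without 5xFAD were not analysed here, so an effect of T96K without amyloid cannot be read from these libraries.

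MS4A1 is CD20, the surface protein of B cells, and Ms4a4b is known from T cells in mice. Ms4a4c, Ms4a6b, Ms4a6c, Ms4a6d and Ms4a7 are known as transcripts of mouse monocytes and macrophages, microglia included. In humans the MS4A gene cluster is one of the regions linked to Alzheimer's disease risk, and MS4A4A has been tied to the amount of soluble TREM2 in cerebrospinal fluid.

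Depth, as reads recovered from the RPKM values, ran from 5.89 to 42.4 M per library. They fell into 34 shallow libraries with up to 16 M reads and 10 deep ones with at least 26.5 M, 1 or 2 deep libraries in each group, with deep females numbered 25 to 34 and deep males 21 to 24. No label names a batch, so fits within the shallow libraries were run too. The library labelled female T96K/+ 22 went against its label: Xist, which coats the silenced X, read 0.416 RPKM there and 16.9 or more in the remaining 26 of that table, and Ddx3y, a gene of the Y, read 14.4 RPKM there and 0.0893 or less elsewhere. Without it, no member's call changed in any female comparison. The labels number the libraries but do not state that each number is a separate mouse, so p-values reflect library-to-library spread, which may be technical.

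The members with a row lie together on chromosome 19 of mm9, within 354.7 kb from 11324654 to 11679339, a stretch that holds 12 annotated genes of which 10 carry an Ms4a name. Ms4a1 (11324654 to 11340669), Ms4a7 (11395529 to 11410636) and Ms4a6d (11661094 to 11679339) lie on the - strand. Ms4a4c (11479260 to 11501736), Ms4a4b (11518043 to 11538039), Ms4a6c (11543858 to 11556687) and Ms4a6b (11591002 to 11605746) lie on the + strand, in that order. All 7 are annotated as protein-coding. Their sequences are close enough to matter for counting. Coding sequences of Ms4a4b and Ms4a4c were 91.8% identical over 681 aligned bases, those of Ms4a6b and Ms4a6c 85.3% over 645, and those of Ms4a6b and Ms4a6d 81.3% over 733. Of the 50-base stretches of each gene's transcripts, 6.78% in Ms4a6c, 5.32% in Ms4a4b, 4.96% in Ms4a4c, 3.44% in Ms4a6b and 2.69% in Ms4a6d also occurred in another protein-coding gene, and none did in Ms4a1 or Ms4a7. Reads from those stretches cannot be assigned to 1 gene, their treatment by the authors is not stated in the labels, and the levels of these paralogs carry that uncertainty.

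Ms4a6b and Ms4a6c also have similar sequence ahead of their starts. This pair is shown because the ratio of its levels is described below, a choice made after the values had been seen. The 250 bases before the RefSeq start (sequence of GRCm38.p6, found unchanged at the mm9 positions given) are printed 5′ to 3′ on the + strand, with capitals marking the core of an interferon-stimulated response element.
Ms4a6b, chr19:11592799-11593048: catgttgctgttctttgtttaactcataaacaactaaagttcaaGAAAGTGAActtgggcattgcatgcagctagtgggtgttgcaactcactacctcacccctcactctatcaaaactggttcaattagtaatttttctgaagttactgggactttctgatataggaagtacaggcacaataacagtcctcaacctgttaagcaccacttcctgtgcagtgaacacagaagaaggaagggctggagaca
Ms4a6c, chr19:11543608-11543857: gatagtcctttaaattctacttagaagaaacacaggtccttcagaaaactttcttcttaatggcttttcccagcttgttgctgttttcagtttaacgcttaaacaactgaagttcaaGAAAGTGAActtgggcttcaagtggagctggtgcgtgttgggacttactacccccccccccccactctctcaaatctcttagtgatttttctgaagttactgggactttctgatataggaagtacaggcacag
Over 220 aligned bases of the 300-base RefSeq windows (250 before and 50 from the start on) the 2 sequences were 85.9% identical. Each holds 1 match to GAAANNGAA, spelled GAAAGTGAA in both, at position -206 in Ms4a6b and -133 in Ms4a6c, counted back from the start. For Ms4a6b this RefSeq start lies inside the gene as annotated in mm9, and for Ms4a6c it is the annotated start.

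RefSeq windows were at hand for 6 of the 8 members (Ms4a4a, Ms4a4b, Ms4a4c, Ms4a6b, Ms4a6c and Ms4a7, the last with 2 starts). Searched on both strands, GAAANNGAA also occurred in both Ms4a7 windows, and 8.56% of all 32851 windows hold it. The AP-1 motif TGANTCA, which reads the same on both strands, occurred in Ms4a4b and in 1 window of Ms4a7, against 7.81% of all windows. The exact letters GAGGAAG, a form of the PU.1 site (13.6% of all windows), and the E-box CACGTG (7.15%) occurred in no member's window. Shorter or varied forms of the PU.1 site were not searched, so their absence cannot be read from this. No match overlapped another. Ms4a4c, the tested member with the largest difference between Trem2+/+ and NonTg females, held none of these letters in its window. The 250 bases before its RefSeq start (11481901 to 11482150 in mm9) lie inside the gene as annotated there, from 11479260. The sequence ahead of that annotated start was not searched. These matches describe letters and are not evidence of binding.

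Averaged over all libraries of a table, Ms4a6d had the highest level of the members, followed by Ms4a6c and Ms4a6b, and these 3 genes of the Ms4a6 subgroup made up most of the family's RPKM. Averaged over the 27 female libraries, Ms4a6d stood at 29.8 RPKM, Ms4a6c at 25.3, Ms4a6b at 14.5, Ms4a4c at 7.10 and Ms4a7 at 6.40. The male table gave the same order, with 27.4, 19.8, 11.3, 5.62 and 5.07 RPKM over 17 libraries. RPKM is scaled to gene length, so these levels can be set beside each other as far as the deposited lengths hold. For Ms4a6b and Ms4a7 those lengths were 2829 and 2619 bases, against 4485 and 4453 of merged exons in the mm9 annotation. For Ms4a6d, Ms4a6c and Ms4a4c they were 1927, 1840 and 1743, against 1735, 1848 and 1751. The order was not recomputed with other lengths. The order turned within single groups: in NonTg the mean of Ms4a6b (19.5 RPKM) was above that of Ms4a6c (15.5), and in female T96K/T96K that of Ms4a6c (28.5) was above that of Ms4a6d (25.3). Ms4a7 was above Ms4a4c in NonTg (5.40 against 3.06 RPKM) and in T96K/+ of females (6.02 against 4.82) and males (5.05 against 4.93). The neighbours were not separated in every library either. In the female table Ms4a6d ranged from 11.7 to 55.7 and Ms4a6c from 9.29 to 45.2 RPKM, and Ms4a4c (0.912 to 21.6) overlapped Ms4a7 (1.3 to 13.5). Summed over the members, the level was 67.2 ± 17.1 RPKM in NonTg (SD, n = 5), 103 ± 13.7 in female 5xFAD Trem2+/+ (n = 6), 78.7 ± 15.7 in T96K/+ (n = 9) and 83.6 ± 26.8 in T96K/T96K (n = 7). In males the sum was 78.6 ± 10.6 (n = 5), 63.4 ± 11.9 (n = 6) and 67.8 ± 15.3 (n = 6) in the same order of Trem2 genotypes.

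**Figure D1:**
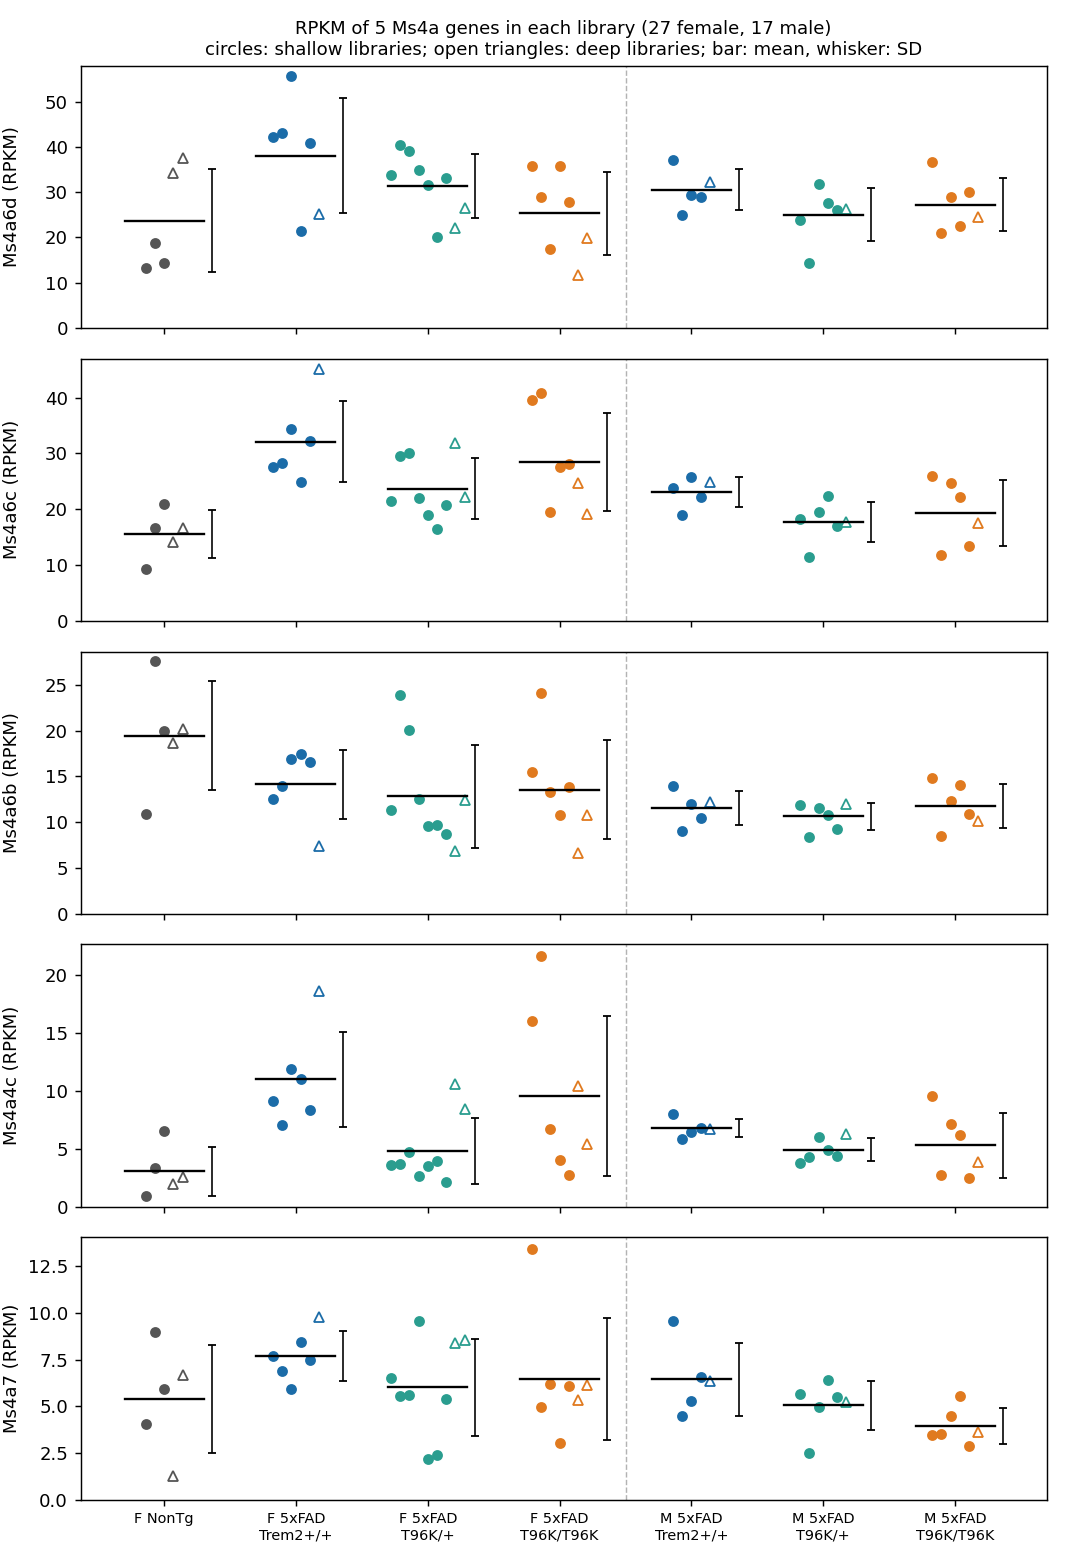
RPKM (linear axis) of the 5 tested Ms4a genes in every library, by genotype group, with the female table left of the dashed line and the male table right of it. Horizontal bars are group means and whiskers the SD; filled circles are shallow and open triangles deep libraries. Female 5xFAD Trem2+/+ libraries of Ms4a4c (7.06 to 18.6) and Ms4a6c (24.9 to 45.2) all lie above the NonTg libraries, while the Ms4a6d groups overlap. How common such separation is among all tested genes was not counted.

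Ms4a1 and Ms4a4b, the lymphocyte members, were close to absent. Ms4a1 was at 0 in 16 of 27 female and 10 of 17 male libraries, and its highest values were 0.539 RPKM (70 reads) in female Trem2+/+ library 25 and 0.399 RPKM in a male T96K/T96K library. Ms4a4b was at 0 in 4 female and 3 male libraries and peaked at 0.587 RPKM (103 reads) in the same female library 25. A count of 0 allows up to 3 reads, by counting error alone. None of 11 T or NK cell markers passed the filter. B cell markers were mixed: 4 of the 8 listed passed it in each table and were present in every library, Ighm at 123 to 525 RPKM, Cd22 at 1.84 to 21.6, Cd79b at 3.80 to 17.5 and Cd79a at 0.0711 to 1.89 in females. The other 4 did not pass, among them Pax5, a B cell transcription factor, at 0 in 21 of 27 female libraries and at most 0.0754 RPKM.

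Of the 10 further rows with an Ms4a name, none passed the filter, Ms4a10, Ms4a12 and Ms4a13 were listed at 0 in every library, and the highest mean was 0.504 RPKM in females and 0.417 in males, both for Ms4a8a. Ms4a2, the beta subunit of the high-affinity IgE receptor of mast cells and basophils, averaged 0.239 RPKM in females.

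In females, 5xFAD microglia with normal Trem2 held more Ms4a4c and Ms4a6c RNA than NonTg microglia. Genes were tested with limma on log2(RPKM + 1), all differences below are on that scale, which understates changes of low genes, and a gene is called at a Benjamini-Hochberg adjusted p under 0.05 over all tested genes. Ms4a4c read 0.912, 3.32, 6.54, 1.93 and 2.57 RPKM in the 5 NonTg libraries and 7.06, 10.1 and 18.6 (lowest, median, highest) in the 6 Trem2+/+ libraries. The groups did not overlap. The difference was 1.65 (SE 0.40, a ratio of 3.15), with an adjusted p of 0.00395 by limma. Ms4a6c read 9.29, 16.7, 20.9, 14.1 and 16.7 RPKM in NonTg and 24.9, 30.3 and 45.2 in Trem2+/+. Here too every 5xFAD library lay above every NonTg library, and the difference was 1.02 (SE 0.21, a ratio of 2.02; adjusted p 0.000936). Both calls held in each alternative fit and with each library left out.

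The other tested members did not pass in this comparison. Ms4a6d read 13.3, 18.7, 14.5, 34.2 and 37.5 RPKM in NonTg and 21.4, 41.5 and 55.7 in Trem2+/+, a difference of 0.72 (SE 0.29, adjusted p 0.0783). Ms4a7, a macrophage member, read 4.08, 8.98, 5.94, 1.3 and 6.71 RPKM in NonTg and 5.92, 7.60 and 9.78 in Trem2+/+ (difference 0.59, SE 0.33, adjusted p 0.22). Ms4a6b was the one member with a lower mean: 10.9, 27.6, 19.9, 18.7 and 20.2 RPKM in NonTg against 7.43, 15.2 and 17.4 in Trem2+/+ (difference -0.43, SE 0.29, adjusted p 0.305). The groups overlapped for all 3. The share of all tested genes without overlap was not counted, so the separation of Ms4a4c and Ms4a6c is a description only. Across the table limma called 23.6% of all tested genes in this comparison, and 13.5% as higher, beside 2 of 5 tested members called, both higher. The median difference was 0.72 over the 5 members and 0.04 over all genes.

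Ms4a6d gave another answer within the shallow libraries. Its 3 shallow NonTg libraries read 13.3 to 18.7 RPKM and its 2 deep ones 34.2 and 37.5, whereas the deep 5xFAD libraries of females read 11.7 to 26.6. With shallow libraries only, Ms4a6d was called higher than NonTg in Trem2+/+ (difference 1.29, adjusted p 0.00132), in T96K/+ (1.04, adjusted p 0.00577) and in T96K/T96K (0.84, adjusted p 0.0278), by limma. The part of depth in this was not tested. Ms4a6c showed no such split in NonTg, with a mean of 15.6 RPKM in shallow and 15.4 in deep libraries. Some differences from NonTg were called neither in the main fit nor within the shallow libraries. For these, the shallow libraries gave Ms4a7 smaller values, 0.22 in Trem2+/+ and 0.0059 in T96K/T96K, and one of the other sign in T96K/+ (-0.27). They gave Ms4a4c 0.15 in T96K/+, and Ms4a6b -0.23 in Trem2+/+, -0.47 in T96K/+ and -0.27 in T96K/T96K.

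In T96K/+ females, Ms4a6c was the 1 of 5 tested members called against NonTg, where 17.3% of all genes were called and 10.3% were called higher. It read 16.4, 22 and 31.8 RPKM (lowest, median, highest of 9), overlapping the highest NonTg library at 20.9. The difference was 0.59 (SE 0.19, a ratio of 1.51; limma adjusted p 0.0349), and 0.65 (adjusted p 0.0208) without library 22. The call was lost when NonTg library 4 or 28 or T96K/+ library 8, 16 or 26 was left out, with adjusted p between 0.0610 and 0.168, and within the shallow libraries (0.55, adjusted p 0.1). Ms4a4c read 2.13, 3.69 and 10.6 RPKM, within reach of NonTg, and its difference of 0.55 (SE 0.37) did not pass (adjusted p 0.357). Ms4a6b read 6.91, 11.3 and 23.9 RPKM, a difference of -0.60 (SE 0.26, adjusted p 0.121). It was called lower only in the fit with the depth set as a covariate (-0.69, adjusted p 0.0444). Ms4a6d (20.1, 33.1 and 40.3 RPKM; 0.48, adjusted p 0.247) and Ms4a7 (2.21, 5.63 and 9.58 RPKM; 0.19, adjusted p 0.750) were not called.

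In T96K/T96K females, Ms4a4c and Ms4a6c were both called higher than in NonTg, beside 15.3% of all genes called and 10.3% called higher. Ms4a4c spread widely, with 2.77, 6.73 and 21.6 RPKM as lowest, median and highest of 7, and overlapped NonTg. Its difference was 1.27 (SE 0.39, a ratio of 2.41; limma adjusted p 0.0271). That call was lost without NonTg library 4 or 28 or T96K/T96K library 3, 9 or 27 (adjusted p 0.0512 to 0.113), within shallow libraries (1.17, adjusted p 0.0791) and with only the compared groups in the fit (adjusted p 0.0785). Ms4a6c read 19.1, 27.6 and 40.8 RPKM, a difference of 0.82 (SE 0.20, a ratio of 1.77; adjusted p 0.00584), and stayed called with each library left out. Ms4a6b (6.65, 13.3 and 24.1 RPKM; -0.52, adjusted p 0.214), Ms4a6d (11.7, 27.7 and 35.7 RPKM; 0.13, adjusted p 0.792) and Ms4a7 (3.06, 6.07 and 13.5 RPKM; 0.28, adjusted p 0.586) were not called. The 3 comparisons share the same 5 NonTg libraries, so likeness among them is not independent.

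**Figure D2:**
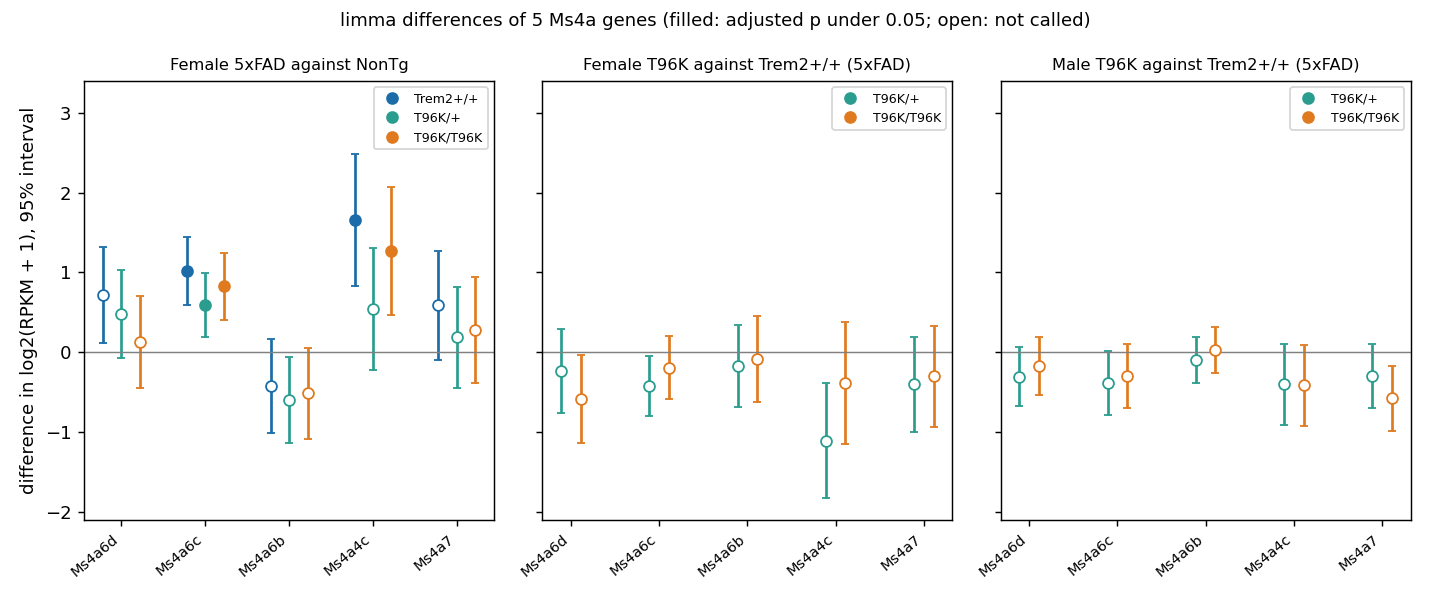
Differences in log2(RPKM + 1) of the 5 tested Ms4a genes with 95% intervals from limma, for female 5xFAD genotypes against NonTg (left) and for T96K genotypes against Trem2+/+ within 5xFAD in females (middle) and males (right). Filled points are called at an adjusted p under 0.05, open points are not; the filled points are Ms4a6c in all 3 NonTg comparisons and Ms4a4c in those of Trem2+/+ (1.65) and T96K/T96K (1.27).

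The ratio of the close paralogs Ms4a6c and Ms4a6b within each library does not depend on scaling between libraries. It was chosen after both genes' values had been seen, so it is given as a description with no test. Ms4a6c over Ms4a6b was 0.605 to 1.05 in the 5 NonTg libraries (mean 0.818), and 1.43 to 6.08 in female Trem2+/+, 1.23 to 4.61 in T96K/+ and 1.46 to 3.72 in T96K/T96K. No 5xFAD library of either sex overlapped the NonTg range, which comes from females only, the lowest male ratio being 1.23. How common such separation is among ratios of other gene pairs was not counted. On the log2 scale the female differences from NonTg were 1.52, 1.27 and 1.42. Within the shallow libraries they were 1.23, 1.09 and 1.3, and the ranges did not overlap there either.

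Ms4a6d over Ms4a6b also averaged lower in NonTg (1.26 ± 0.57, n = 5) than in female Trem2+/+ (2.80 ± 0.84, n = 6) and T96K/+ (2.65 ± 0.72, n = 9), with T96K/T96K between them (1.96 ± 0.70, n = 7) and overlap throughout. A ratio shows unequal change and not which gene of a pair changed. Shared stretches between these paralogs could move reads from one to the other, and their part in the ratio was not tested.

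**Figure D3:**
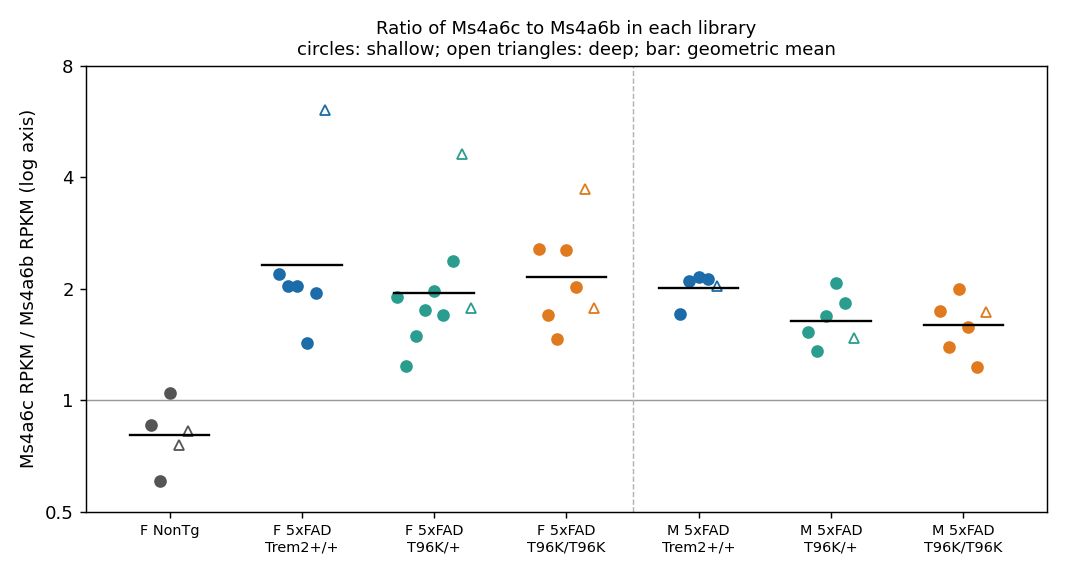
Ms4a6c RPKM divided by Ms4a6b RPKM in each library (log axis), by genotype group, with the female table left of the dashed line. Bars are geometric means, filled circles shallow and open triangles deep libraries. The 5 NonTg libraries lie between 0.605 and 1.05 and every 5xFAD library lies at 1.23 or above. How common such separation is among ratios of other gene pairs was not counted.

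Within 5xFAD females, neither T96K genotype gave a called member. Limma called 0 of 14591 genes (0%) in T96K/+ against Trem2+/+, in T96K/T96K against Trem2+/+ and in T96K/T96K against T96K/+, while 523, 544 and 514 genes had an unadjusted p under 0.05. Each of these counts is below the share of 0.05 that would pass by chance if no gene differed. Ms4a4c stood lowest in T96K/+: its 9 libraries read 2.13 to 10.6 RPKM (median 3.69), against 7.06 to 18.6 (median 10.1) in the 6 Trem2+/+ libraries. The 7 shallow T96K/+ libraries, at 2.13 to 4.74 RPKM, all lay below Trem2+/+. The 2 deep ones, at 8.48 and 10.6, lay within its range. How many genes separate in this way was not counted. With shallow libraries only, the difference was -1.23 and was not called (limma adjusted p 0.875). With all libraries it was -1.11 (SE 0.35, 95% interval -1.83 to -0.39). Its unadjusted limma p of 0.00399 became 0.994 after adjustment over all genes. Ms4a6c differed by -0.43 (SE 0.18, adjusted p 0.994) in the same comparison.

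T96K/T96K libraries did not extend that difference. Ms4a4c differed from Trem2+/+ by -0.38 (SE 0.37, 95% interval -1.15 to 0.38) and stood 0.73 above T96K/+ (SE 0.34, adjusted p 0.978). Ms4a6d had its lowest 5xFAD mean here, 25.3 ± 9.2 RPKM against 38.0 ± 12.7 in Trem2+/+, a difference of -0.59 (SE 0.27, 95% interval -1.14 to -0.03; adjusted p 0.974). For Ms4a6b the intervals of the difference from Trem2+/+ ran from -0.69 to 0.34 in T96K/+ and from -0.63 to 0.45 in T96K/T96K, and for Ms4a7 from -1.0 to 0.20 and from -0.94 to 0.33.

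In 5xFAD males no member was called either, and limma called 0 of 13845 genes (0%) in each of the 3 comparisons, with 1703, 1193 and 342 genes at an unadjusted p under 0.05 in T96K/+ against Trem2+/+, T96K/T96K against Trem2+/+ and T96K/T96K against T96K/+. The counts against Trem2+/+ lie above a share of 0.05 of the tested genes, and the count against T96K/+ lies below it. Ms4a7 had the smallest member p: it read 9.58, 4.46, 5.30, 6.57 and 6.35 RPKM in Trem2+/+ and 2.89, 3.57 and 5.58 (lowest, median, highest of 6) in T96K/T96K. The groups overlapped, and the difference was -0.58 (SE 0.19, 95% interval -0.99 to -0.18; unadjusted p 0.00769, adjusted p 0.5). T96K/+ males read 2.52, 5.38 and 6.42 RPKM. The summed markers of border-associated macrophages averaged 62.0 RPKM in male Trem2+/+, 47.8 in T96K/+ and 42.6 in T96K/T96K. With group means removed, Ms4a7 had r = 0.59 with that sum in males and 0.21 in 5xFAD females. With type I interferon genes it had 0.55 and 0.26. The part of such cells in the Ms4a7 difference was not tested.

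Ms4a4c in males read 8.02, 5.89, 6.48, 6.82 and 6.75 RPKM in Trem2+/+, 3.76, 4.63 and 6.25 in T96K/+ and 2.45, 5.03 and 9.56 in T96K/T96K. The differences from Trem2+/+ were -0.40 and -0.42 (SE 0.24 each; adjusted p 0.484 and 0.619). Ms4a6c read 23.8, 19, 25.8, 22.2 and 24.9 RPKM in Trem2+/+, 11.4, 17.9 and 22.4 in T96K/+ and 11.8, 19.9 and 25.9 in T96K/T96K, with differences of -0.39 and -0.30 (SE 0.19 each; adjusted p 0.422 and 0.653). Ms4a6d means were 30.5 ± 4.5, 25 ± 5.8 and 27.3 ± 5.8 RPKM, and Ms4a6b means 11.5 ± 1.9, 10.7 ± 1.5 and 11.8 ± 2.4. The Ms4a6c to Ms4a6b ratio was 1.71 to 2.15 in Trem2+/+, 1.36 to 2.07 in T96K/+ and 1.23 to 2.0 in T96K/T96K. On the log2 scale its means differed from Trem2+/+ by -0.30 and -0.34, given with no test, and the ranges overlapped. Whether T96K effects differ between the sexes was not tested, because the 2 tables were scaled separately.

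Ms4a4c varied with monocyte markers, which a CD11b and CD45 sort may include, and with some other marker lists given below. The summed RPKM of the 8 monocyte marker rows (of 9 listed names, among them Ly6c2, Ccr2 and Plac8) ranged from 67.1 to 276 in NonTg, 67.8 to 276 in female Trem2+/+, 14.6 to 145 in T96K/+ and 76.6 to 312 in T96K/T96K. None of the 8 markers is at 0 throughout, and F10 alone was at 0 in any female library (4 of 27). Nr4a1, which many cells induce on handling, made up much of the NonTg sum, with a mean of 102 RPKM against 33.1 to 47.9 in the 5xFAD groups. Plac8 averaged 4.07 RPKM in NonTg, 13.1 in Trem2+/+, 2.57 in T96K/+ and 11.6 in T96K/T96K, and Ly6c2 averaged 11.4, 22.5, 11.1 and 31.5. Fewer cells of a type and less RNA per cell cannot be told apart in such bulk libraries.

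Across the 22 female 5xFAD libraries, with group means removed, log2 Ms4a4c and the log2 monocyte sum had r = 0.66 (permutation p 0.000670, adjusted p 0.01 over 30 relations) and rho = 0.53 (p 0.0146, adjusted p 0.0729). Without the 2 libraries farthest in Ms4a4c r was 0.51. Within the 17 shallow libraries it was 0.43 (permutation p 0.155), and -0.02 without the 2 farthest, so in females the relation rests on few libraries. In the 17 males r was 0.81 (p 0.00406, adjusted p 0.0297) and rho 0.79 (adjusted p 0.0654), with r = 0.74 without the 2 farthest and 0.79 in the 14 shallow libraries (permutation p 0.0215, adjusted p 0.0725). Nr4a1 weighed on these sums. Without it (7 rows, chosen after seeing the data) the sum averaged 45.0 RPKM in NonTg (5.90 to 120.2), 87.4 in Trem2+/+ (36.2 to 251), 32.1 in T96K/+ (3.66 to 128) and 108 in T96K/T96K (34.4 to 236), so its order over the female groups was T96K/+, NonTg, Trem2+/+, T96K/T96K, with overlap throughout. Relations to that sum are a description with no test, because its rows were chosen from these same values. Against it Ms4a4c had r = 0.71 and rho = 0.71 in females, with r = 0.59 without the 2 farthest. In shallow females r was 0.51, and 0.16 there without the 2 farthest. In males r was 0.85 and rho 0.82, with r = 0.82 without the 2 farthest and 0.84 in shallow libraries. Sums of other marker lists were also set beside the members, with no test. With type I interferon genes, r of Ms4a4c was 0.59 in females and 0.50 in males. With neutrophil markers it was 0.42 and 0.73. With microglia markers it was -0.48 and 0.35, where Ms4a6d had 0.80 and 0.84. The adjustment over 30 relations does not cover the choice of the monocyte list. The part of monocytes in the Ms4a4c differences was not tested.

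**Figure D4:**
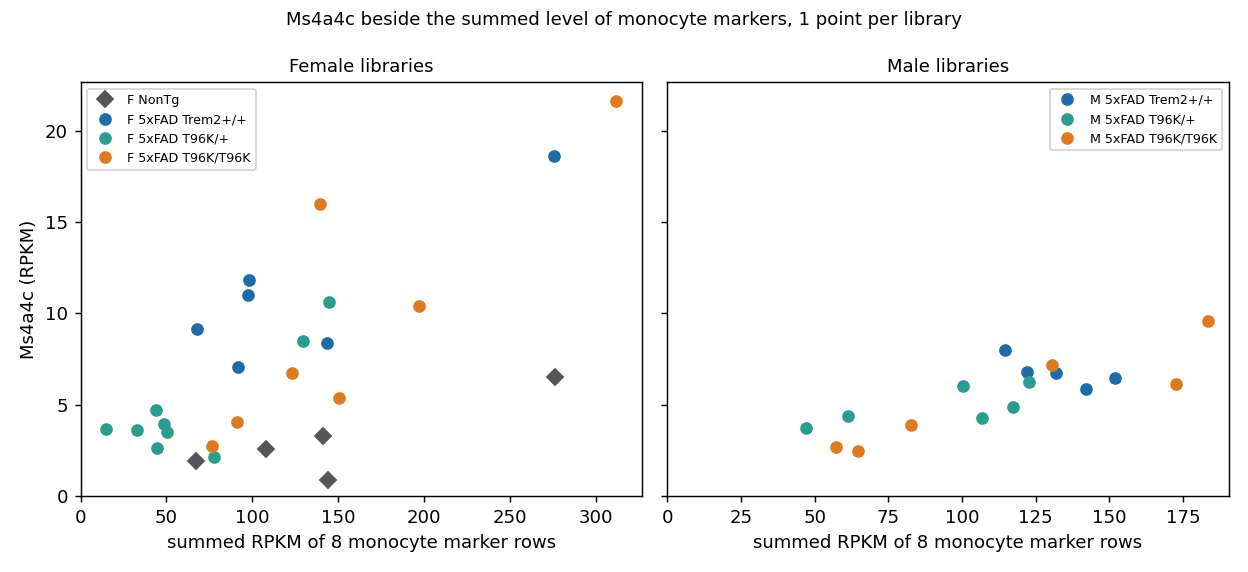
Ms4a4c RPKM against the summed RPKM of 8 monocyte marker rows, 1 point per library, for females (left; diamonds are NonTg) and males (right), both axes linear. NonTg libraries have sums of 67.1 to 276, in which Nr4a1 averages 102 RPKM, and at most 6.54 RPKM of Ms4a4c; the T96K/+ females fill the low end of the monocyte axis, from 14.6 up.

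How far members varied together differed between the tables as given, a difference that was not tested. In the 17 males all 10 pairs of tested members had a positive r of deviations from group means (0.36 to 0.80), and 7 had an adjusted permutation p under 0.05 over the 30 relations, 1 within the 14 shallow libraries and 0 by rho. In the 22 females r ran from -0.22 to 0.58, 9 of 10 were positive and 2 passed. Within the 17 shallow libraries r ran from 0.04 to 0.73 and 2 passed. By rho 0 passed in either female set. Library 22 is part of both sets, and the relations were not run without it. In males, Ms4a6b and Ms4a6c had r = 0.80 (permutation p 0.000500, adjusted p 0.01; rho 0.73, adjusted p 0.0654), and r = 0.71 without the 2 farthest libraries. In the 22 females the same pair had r = 0.27 (permutation p 0.254, adjusted p 0.332). Within the 17 shallow libraries it had r = 0.73 (permutation p 0.00302, adjusted p 0.0302) and rho = 0.69 (adjusted permutation p 0.0647). Ms4a7 and Ms4a6d had r = 0.01 in females (permutation p 0.971) and 0.52 in males (permutation p 0.0641, adjusted p 0.130).

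The genes most like each of the 3 highest members were picked by r over the 22 female 5xFAD libraries (group means removed, log2(RPKM + 1)) among 9350 coding genes present in both tables; as the highest of that many they get no test. For Ms4a6d they were Slc46a1, a folate transporter (r 0.87 in females, 0.86 in 17 males), P4ha1, a collagen prolyl hydroxylase subunit (0.87 and 0.63), and Pla2g15, a lysosomal phospholipase (0.87 and 0.84). For Ms4a6c they were Pon3, a paraoxonase (0.80 and 0.79), Ormdl2, a regulator of sphingolipid synthesis (0.78 and 0.65), and Cks1b, a cyclin-dependent kinase subunit (0.78 and 0.70). For Ms4a6b they were Slc4a7, a bicarbonate transporter (0.88 and 0.61), Tm6sf1 (0.87 and 0.63) and Klf3, a transcriptional repressor (0.87 and 0.40). All points share library depth and cell make-up.

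Other genes give the setting. Tmem176a and Tmem176b, membrane proteins related to the MS4A family, were both called higher than NonTg in all 3 female comparisons. Tmem176a differed by 1.43, 1.20 and 1.13 and Tmem176b by 1.12, 0.91 and 0.87 (Trem2+/+, then T96K/+, then T96K/T96K). The limma adjusted p was at most 0.00142. Their NonTg means were 147.6 RPKM for Tmem176a and 163.6 RPKM for Tmem176b. Means over all 27 female libraries, 5xFAD included, were 306.8 and 288.2 RPKM. Of 14 type I interferon response genes, 7 were called higher and 0 lower in each female comparison with NonTg; Ifi204 rose by 2.60 and Ifi27l2a by 4.18 in Trem2+/+. Of 10 genes of disease-associated microglia, the state microglia take up near plaques, 9 were called higher in each, with Lpl up by 4.66 and Gpnmb by 6.41 in Trem2+/+. Of 11 genes of the TREM2 receptor and its signalling, 3 were called higher in each, among them Trem2 (differences of 2.0, 1.82 and 1.89 in the order above) and the adaptor Hcst (2.64 in Trem2+/+).

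Markers of other cells moved in part with the same comparisons. Of 8 endothelial markers, 8 were called lower in Trem2+/+, 6 in T96K/+ and 1 in T96K/T96K against NonTg, with Esam at -1.3 and Pecam1 at -1.60 in Trem2+/+. Of 10 markers of border-associated macrophages, Stab1 was called lower in all 3 (-1.45, -1.11 and -1.20) and Folr2 higher in Trem2+/+ (0.98) and T96K/+ (1.03). Of 9 microglia markers, Aif1 alone was called, higher by 0.87 in Trem2+/+. Of 4 tested B cell genes, Cd22 alone was called, higher by 1.61, 1.63 and 1.53. Of 8 monocyte markers, Nr4a1 alone was called, in T96K/+ alone (-1.75), and of 8 neutrophil and 3 tested mast cell or basophil markers 0 were called. The part of these cells in the Ms4a differences was not tested.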

How the data were processed

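RNA of sorted microglia was made into cDNA with a SMART-Seq v4 low-input kit and libraries with Nextera XT, per the labels' protocols; this chemistry does not mark the strand. Reads were aligned to mm9, with STAR, HTSeq and edgeR named, without versions, per the submitters' processing notes. The authors deposited RPKM per gene, in 1 table for 27 female and 1 for 17 male libraries, scaled separately, so tests were run within a table. Recovered reads were whole for 100% of values (tolerance 0.01 reads).

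Values were taken as log2(RPKM + 1), a pseudocount of 1, for genes reaching 1 RPKM in 5 libraries or more. They were fitted with limma 3.58.1 in R 4.3.3 (trend and robust options, 1 mean per group, Benjamini-Hochberg adjustment over all genes, threshold 0.05). On simulated data the fit was checked to recover changed genes. Relations between libraries were tested by 100000 permutations within groups (numpy 2.4.6). Coding sequences were aligned with Biopython 1.88. A deep library held at least 20 M reads.

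The members, gene lists and comparisons were chosen with earlier results of these data known. Outside the family, named genes were the 3 most like each of the 3 highest members, the 2 tested genes of each list with the smallest p in 5xFAD Trem2+/+ against NonTg, and the other Ms4a row with the highest level; further names were chosen after their values were seen. Alternatives were pseudocounts of 0.1 and 0.5, no filter and a filter of 0.5 RPKM, quantile normalization, limma without trend and robust options, only the compared groups, voom on recovered reads, depth as a covariate, shallow libraries only, library 22 left out and each library left out.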

Additional observations from a re-analysis of the deposited data

Results flagged for a closer look

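Ms4a7 in female T96K/T96K library 3 stood far from its group, at 13.5 RPKM against 6.20 in the nearest of the other 6 libraries; 35 groups of members were checked, and chance finds such a library in about 1 in 20. Ms4a4c was also high in that library (16 RPKM), below library 9 of the same group (21.6 RPKM).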

How the results depend on the processing

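Ms4a4c and Ms4a6c kept their calls in 5xFAD Trem2+/+ against NonTg in every fit run. Of 1055 refitted member differences, 1007 kept direction and side of the threshold. In T96K/+ against NonTg the number of members called, 1, became 0 without a filter on low values and 0 with quantile normalization (Ms4a6c, adjusted p 0.0584 and 0.0554), and 2 with depth as a covariate. In T96K/T96K against NonTg the 2 called became 1 with only the compared groups. With single libraries left out, the counts ran from 0 to 1 in T96K/+, from 1 to 2 in T96K/T96K and from 2 to 3 in Trem2+/+. Within shallow libraries the direction turned for Ms4a7 in T96K/+ against NonTg (-0.27), Ms4a6c in female T96K/T96K against Trem2+/+ (0.037), Ms4a4c in male T96K/T96K against T96K/+ (0.10) and the Ms4a6c to Ms4a6b ratio in female T96K/T96K against Trem2+/+ (0.075), and without library 22 for Ms4a7 in T96K/T96K against T96K/+ (-0.021). None of these was called, and the cause was not tested.

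Leaving out single libraries also turned differences that were not called. Against NonTg these were Ms4a6d in T96K/T96K (-0.035 to 0.32) and Ms4a7 in T96K/+ (-0.14 to 0.39) and T96K/T96K (-0.047 to 0.48). In females, T96K/T96K against Trem2+/+ gave -0.25 to 0.052 for Ms4a6b and -0.24 to 0.18 for the ratio, T96K/+ against Trem2+/+ gave -0.41 to 0.028 for the ratio, and T96K/T96K against T96K/+ gave -0.058 to 0.23 for Ms4a6b and -0.078 to 0.23 for Ms4a7. In males, T96K/T96K against T96K/+ gave -0.18 to 0.14 for Ms4a4c, -0.025 to 0.21 for Ms4a6c, -0.0095 to 0.21 for Ms4a6d and -0.11 to 0.030 for the ratio, and against Trem2+/+ -0.055 to 0.10 for Ms4a6b. No paired analysis was possible because the libraries compared within a sex share no numbers. The shallow-only ratio and its left-out values were chosen after seeing the data.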
